A study of Mus musculus with 6 samples.

Results

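The genes described here make fatty acids and build triglycerides from them. They are a fixed list of 34 genes for citrate export, fatty acid synthesis, elongation, desaturation, activation and esterification, with their regulators, and were measured in mouse liver. A gene was represented by a probe set, a group of short probes read as one value, whose platform annotation names that gene alone, and by the brightest such set by the mean of 6 arrays where there were several. This gave 31 of the 34 genes, out of 14860 genes measured in the same way. Each of the 31 had exactly 1 such probe set, so that brightness decided nothing. Acss2 and Acsl3 appeared only in probe sets that also name another gene and Me1 in none, and no value is given for these 3.

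Liver RNA came from 3 DeltaHepKlf6 mice, in which KLF6, a zinc finger protein that binds GC-rich promoters, was knocked down in hepatocytes only, and from 3 Control littermates that the labels call wild type. All 6 had eaten the same high-fat diet (Teklad) for 8 weeks, and each gave 1 array. Per the labels, the DeltaHepKlf6 mice had improved glucose tolerance and less steatosis, and the Control mice glucose intolerance and marked steatosis. The promoter behind the knockdown and the age of the mice are not given in the sources used here.

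Fatty acid synthesis starts from citrate, which leaves the mitochondrion and is split into acetyl-CoA in the cytosol. Acetyl-CoA carboxylase turns this into malonyl-CoA, and fatty acid synthase joins malonyl-CoA units into palmitate. Elongases and desaturases then modify the chain, acyl-CoA synthetases activate it, and a series of acyltransferases and phosphatases attaches it to glycerol. In liver the pathway is driven by insulin through SREBP-1c, a product of Srebf1, and by glucose through ChREBP, the product of Mlxipl. The comparison was made, per the study design, to look for KLF6 targets in glucose and lipid metabolism.

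Klf6 itself had a log2 signal of 5.93, 5.43 and 5.45 in DeltaHepKlf6 1, 2 and 3, against 6.80, 6.09 and 5.88 in Control 1, 2 and 3. DeltaHepKlf6 1 lay above Control 3, and the difference of -0.65 ± 0.28 (SE) had a limma Benjamini-Hochberg adjusted p = 0.998. Which part of Klf6 its probe set reads is unknown, and liver cells other than hepatocytes were not targeted. These values therefore do not measure the knockdown in hepatocytes. The interquartile range of all probe sets was 3.05, 3.19 and 2.76 log2 units in DeltaHepKlf6 1, 2 and 3, and 3.29, 3.05 and 2.96 in Control 1, 2 and 3. DeltaHepKlf6 3 thus had the narrowest and Control 1 the widest spread of signal. Control 3 also carried transcripts of exocrine pancreas, with a mean over 12 measured marker genes of 11.1, against 4.85 to 5.14 in the other 5 arrays. Of 12 listed hepatocyte markers 7 were measured, with means of 12.3 to 12.5 in every array. Results are therefore also given without single arrays where this matters. In whole liver, fewer cells of a type and less RNA per cell cannot be told apart.

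For none of the 31 genes was a difference between the groups established with 3 mice in each. Limma called 0 of them at a Benjamini-Hochberg adjusted p under 0.05, as it called 0 of all 23332 probe sets (0%), and the adjusted p was 0.998 for each of the 31. At an unadjusted p under 0.05 it counted 0 of the 31, beside 1.68% of all genes and 3.21% of all probe sets. In sign, 22 of the 31 were lower and 9 higher in DeltaHepKlf6, with a median log2 difference of -0.14. Among all 14860 genes 62.8% were lower, with a median of -0.05, and among the brightest 25% of genes 67.8% were lower, with a median of -0.08. The share among the 31, 71%, is thus close to that of bright genes in general, to which 22 of the 31 belong.

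The precision of these differences can be read from their intervals. For 24 of the 31 genes the 95% confidence interval lay inside a 2-fold change in both directions, and for 26 it left out a 2-fold lower level. The other 7 genes, in which a 2-fold change stayed within the interval in at least 1 direction, were Slc25a1, Elovl1, Elovl3, Agpat3, Thrsp, Scd1 and Mogat1. The SD among the 3 mice of a group ran between 0.04 and 0.63 in DeltaHepKlf6 and between 0.05 and 0.91 in Control.

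**Figure D1:**
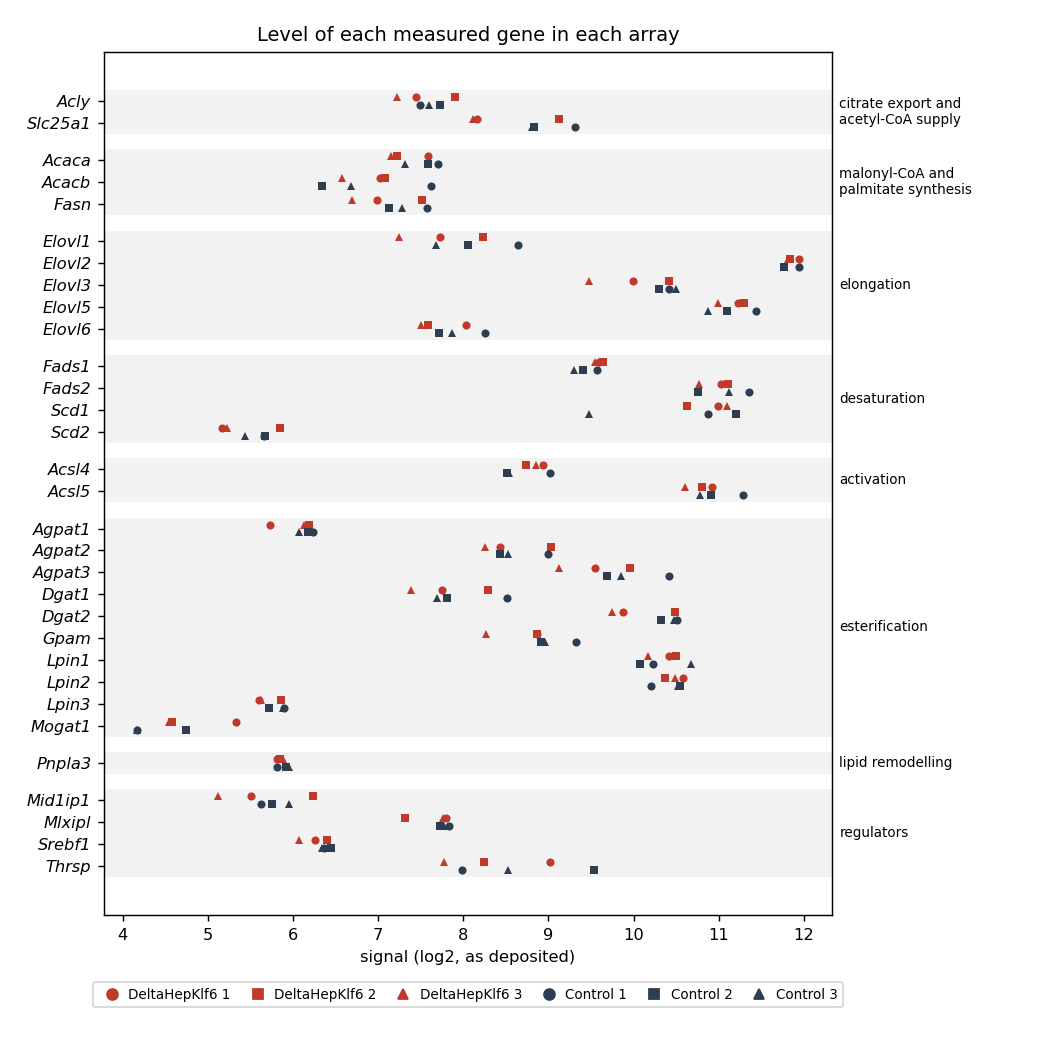
Log2 signal (horizontal axis, as deposited) of the 31 measured genes, ordered by metabolic step, with 1 symbol per array (circle, square and triangle for mice 1, 2 and 3; red for DeltaHepKlf6, dark for Control). The red and dark symbols overlap in every row but that of Gpam, and Control 3 lies apart from the other 5 arrays in the row of Scd1.

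**Figure D2:**
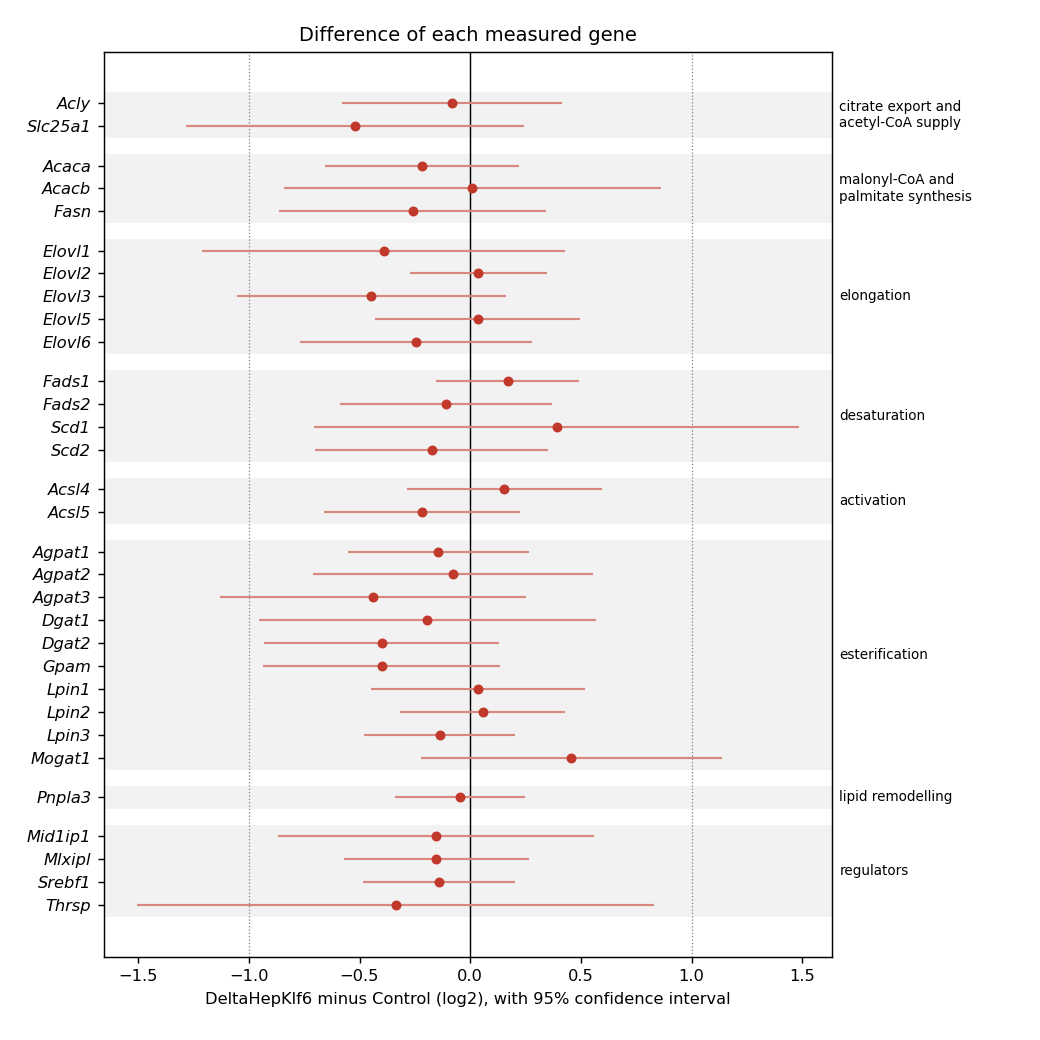
DeltaHepKlf6 minus Control on the log2 scale (points) with the 95% confidence interval of the moderated fit (bars), for the 31 genes with 3 arrays per group; dotted lines mark a 2-fold change either way. Every bar crosses 0, and 22 points lie left of it.

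The first step supplies the building block. Slc25a1 encodes the mitochondrial citrate carrier and had the largest negative difference of the 31 genes. Its log2 signal was 8.16, 9.12 and 8.11 in DeltaHepKlf6 1, 2 and 3, against 9.31, 8.83 and 8.81 in Control 1, 2 and 3. DeltaHepKlf6 1 and 3 were below all Control mice, whereas DeltaHepKlf6 2 was above 2 of them. The mean was 8.46 ± 0.57 in DeltaHepKlf6 and 8.98 ± 0.28 in Control (SD, n = 3 each), a log2 difference of -0.52 ± 0.32 (SE) with a 95% confidence interval of -1.28 to 0.24. Acly, ATP citrate lyase, which splits the exported citrate, differed by only -0.08 ± 0.20 (SE), with 7.45, 7.90 and 7.22 in DeltaHepKlf6 1, 2 and 3 and 7.49, 7.73 and 7.60 in Control 1, 2 and 3. The 3 Acly values of Control fell within the range of those of DeltaHepKlf6.

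Malonyl-CoA and palmitate synthesis was represented by all 3 of its genes. Acaca, the cytosolic acetyl-CoA carboxylase, read 7.58, 7.22 and 7.15 in DeltaHepKlf6 1, 2 and 3, against 7.70, 7.58 and 7.32 in Control 1, 2 and 3. The groups met, since DeltaHepKlf6 1 and Control 2 were equal at this resolution, and the log2 difference was -0.22 ± 0.18 (SE). Fasn, fatty acid synthase, read 6.99, 7.52 and 6.69 in DeltaHepKlf6 1, 2 and 3, against 7.57, 7.13 and 7.28 in Control 1, 2 and 3. DeltaHepKlf6 2 was above Control 2 and 3, as with Slc25a1. The log2 difference of Fasn was -0.26 ± 0.25 (SE), with a 95% confidence interval of -0.86 to 0.34, a ratio of 0.55 to 1.27. It was -0.07 without DeltaHepKlf6 3 and -0.49 without DeltaHepKlf6 2. Acacb encodes the carboxylase at the mitochondrial surface, whose malonyl-CoA restrains fatty acid oxidation. Its groups averaged 6.89 ± 0.28 in DeltaHepKlf6 and 6.88 ± 0.66 in Control (SD, n = 3 each), and Control 1, at 7.62, stood 0.54 above every other array.

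Promoter windows of Slc25a1, Fasn and Gpam are printed because Slc25a1 had the largest negative difference, Fasn is the central enzyme, and Gpam was the only gene of the 31 whose groups did not overlap. Each runs from 250 bases before to 50 bases from the annotated start, 5′ to 3′ on the gene's strand, from RefSeq on GRCm38.p6, and for Gpam the first of 2 listed starts is shown. The windows are chr16:17928170-17928469, chr11:120824498-120824797 and chr19:55127189-55127488, all on the minus strand. Capitals mark, on either strand, the CCAAT box (CCAAT), the GC box (GGGCGG), the palindromic E-box (CACGTG) and a SREBP site core (TCACNCCAC); no 2 of these motifs overlap each other there, though 2 copies of the CCAAT box overlap in Fasn.
Slc25a1: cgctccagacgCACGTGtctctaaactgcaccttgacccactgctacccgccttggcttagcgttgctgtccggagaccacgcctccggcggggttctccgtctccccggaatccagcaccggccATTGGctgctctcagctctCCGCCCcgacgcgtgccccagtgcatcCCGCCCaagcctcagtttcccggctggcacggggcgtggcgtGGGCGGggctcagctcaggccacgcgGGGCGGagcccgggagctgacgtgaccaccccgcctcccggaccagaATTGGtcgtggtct
Fasn: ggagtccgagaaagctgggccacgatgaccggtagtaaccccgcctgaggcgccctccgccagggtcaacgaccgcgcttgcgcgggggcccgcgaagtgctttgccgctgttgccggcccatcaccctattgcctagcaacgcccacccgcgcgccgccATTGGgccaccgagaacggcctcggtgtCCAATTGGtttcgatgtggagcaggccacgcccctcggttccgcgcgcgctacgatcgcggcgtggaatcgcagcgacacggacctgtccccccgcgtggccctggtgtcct
Gpam: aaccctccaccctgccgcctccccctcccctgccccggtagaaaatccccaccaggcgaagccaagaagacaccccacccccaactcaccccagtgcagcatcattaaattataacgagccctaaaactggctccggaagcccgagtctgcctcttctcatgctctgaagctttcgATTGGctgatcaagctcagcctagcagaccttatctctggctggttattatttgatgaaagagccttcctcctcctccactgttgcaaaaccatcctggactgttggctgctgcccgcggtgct
The Slc25a1 window held 4 GC boxes, 2 CCAAT boxes and 1 E-box. The Fasn window held 3 CCAAT boxes and the Gpam window 1. The GC box is a known recognition sequence of the Sp and Kruppel-like factors, and the CCAAT box that of NF-Y, a partner of SREBP at lipogenic promoters. Among the 25 measured genes with a RefSeq window, the first window listed held a CCAAT box in 13 (52%), a GC box in 11 (44%), an E-box in 4 (16%) and a SREBP site core in 1 (4%), that of Mlxipl. No window was at hand for Elovl3, Scd1, Scd2, Fads1, Dgat1 and Dgat2. Over first windows of all 27025 genes with a RefSeq window, measured here or not, the shares were 37.9%, 35.9%, 7.24% and 1.22%. The shares over measured genes alone are not given, so the 2 sets are not alike. A match describes letters in a window and shows no binding.

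Elongation was measured through 5 enzymes. Elovl2, an elongase of polyunsaturated fatty acids, had the highest signal of the 5 probe sets, with 11.94, 11.84 and 11.81 in DeltaHepKlf6 1, 2 and 3 and 11.94, 11.77 and 11.77 in Control 1, 2 and 3. The groups overlapped, and the interval of the difference, -0.27 to 0.35, was among the narrowest. Elovl5, which elongates polyunsaturated chains as well, differed by 0.03 ± 0.19 (SE) at a level of 11.17 ± 0.16 in DeltaHepKlf6 and 11.14 ± 0.29 in Control (SD, n = 3 each). Elovl3, an elongase of saturated and monounsaturated chains, read 9.99, 10.41 and 9.47 in DeltaHepKlf6 1, 2 and 3, against 10.41, 10.30 and 10.50 in Control 1, 2 and 3. The Control values were close together, and DeltaHepKlf6 2 fell among them while DeltaHepKlf6 1 and 3 lay below. The log2 difference of Elovl3 was -0.45 ± 0.25 (SE). It was -0.20 without DeltaHepKlf6 3 and -0.67 without DeltaHepKlf6 2. Elovl6, which takes palmitate to stearate, differed by -0.24 ± 0.22 (SE), or by -0.09 without Control 1 and -0.41 without DeltaHepKlf6 1. Elovl1, which extends very long chains, differed by -0.39 ± 0.34 (SE), or by -0.13 without Control 1 and -0.64 without DeltaHepKlf6 2. Of the 5, the 2 brightest thus differed by less than 0.04 in the mean, and the other 3 by -0.24 to -0.45.

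Desaturation divided by sign, with 2 genes lower and 2 higher. Scd1, the main stearoyl-CoA desaturase of liver, which makes oleate and palmitoleate, read 10.99, 10.63 and 11.10 in DeltaHepKlf6 1, 2 and 3, against 10.87, 11.20 and 9.48 in Control 1, 2 and 3. The other 5 arrays lay between 10.63 and 11.20, and Control 3, the array with the pancreas transcripts, was 1.15 below the lowest of them. The log2 difference was 0.39 ± 0.45 (SE), and -0.13 without Control 3, so its sign rests on that array. Only 4 of 14860 genes had Control 3 lowest by so wide a gap, Scd1, Tff3, Cd300ld and BC048679, a count made after the values were seen. Fasn and Elovl6 did not share this position. Control 3 stood at 7.28 for Fasn and 7.87 for Elovl6, within the range of the other Control arrays. Srebf1 in Control 3 was only 0.02 below the range of the other Control arrays. Of the 28 genes with a single lowest array, 3 were lowest in Control 3, beside 15.6% of all such genes. Besides Scd1 these were Fads1, at 9.30 with 9.40 next, and Elovl5, at 10.87 with 10.99 next. Scd2, the desaturase best known from brain, was dim, with 5.42 ± 0.38 in DeltaHepKlf6 and 5.59 ± 0.13 in Control (SD, n = 3 each). Fads1, the delta-5 desaturase of polyunsaturated fatty acids, read 9.59, 9.64 and 9.55 in DeltaHepKlf6 1, 2 and 3, against 9.57, 9.40 and 9.30 in Control 1, 2 and 3. It was one of the few higher genes, with a log2 difference of 0.17 ± 0.13 (SE), and the groups overlapped through Control 1 alone. Fads2, the delta-6 desaturase, read 11.02, 11.11 and 10.77 in DeltaHepKlf6 1, 2 and 3, against 11.35, 10.76 and 11.12 in Control 1, 2 and 3, with a difference of -0.11 ± 0.20 (SE) and interleaved groups.

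Activation, the attachment of coenzyme A to the finished acid, was read through Acsl4 and Acsl5. Acsl5, a synthetase that channels fatty acids towards triglyceride in liver, read 10.92, 10.80 and 10.60 in DeltaHepKlf6 1, 2 and 3, against 11.28, 10.91 and 10.78 in Control 1, 2 and 3. The order overlapped, and the log2 difference was -0.22 ± 0.18 (SE), or -0.07 without Control 1 and -0.32 without Control 3. Acsl4, which prefers arachidonate, differed the other way by 0.15 ± 0.18 (SE), with 8.84 ± 0.10 in DeltaHepKlf6 and 8.69 ± 0.29 in Control (SD, n = 3 each).

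Esterification was the largest step, with 10 measured genes, 7 of them lower and 3 higher, and a median log2 difference of -0.14. Gpam, the mitochondrial glycerol-3-phosphate acyltransferase that commits an acyl chain to glycerolipid, read 8.86, 8.86 and 8.27 in DeltaHepKlf6 1, 2 and 3, against 9.32, 8.91 and 8.96 in Control 1, 2 and 3. The groups did not overlap, although only 0.05 separated DeltaHepKlf6 1 and 2 from Control 2. Such separation downwards was seen in 1 of the 31 genes, beside 3.9% of all genes, and upwards in 0 of the 31, beside 2.42%. Gpam averaged 8.66 ± 0.34 in DeltaHepKlf6 and 9.06 ± 0.22 in Control (SD, n = 3 each). Its log2 difference of -0.40 ± 0.22 (SE) became -0.20 without DeltaHepKlf6 3, and -0.50 without either DeltaHepKlf6 1 or DeltaHepKlf6 2.

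Of the next acyltransferases, which add the second chain, Agpat3 read 9.55, 9.96 and 9.12 in DeltaHepKlf6 1, 2 and 3, against 10.41, 9.69 and 9.85 in Control 1, 2 and 3. DeltaHepKlf6 2 exceeded Control 2 and 3. The log2 difference of -0.44 ± 0.29 (SE) was -0.23 without either Control 1 or DeltaHepKlf6 3, and -0.65 without DeltaHepKlf6 2. Agpat2 differed by -0.08 ± 0.26 (SE) and Agpat1 by -0.14 ± 0.17 (SE). The lipins, phosphatidate phosphatases that yield diacylglycerol, showed small differences. Lpin2 read 10.58, 10.37 and 10.48 in DeltaHepKlf6 1, 2 and 3, against 10.20, 10.54 and 10.52 in Control 1, 2 and 3, and differed by 0.06 ± 0.15 (SE) with overlapping groups. Lpin1, an insulin- and fasting-sensitive member of the family, differed by 0.04 ± 0.20 (SE), and the dimmer Lpin3 by -0.14 ± 0.14 (SE).

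The last step closes the triglyceride. Dgat2, the acyltransferase that handles newly made fatty acids in liver, read 9.87, 10.48 and 9.75 in DeltaHepKlf6 1, 2 and 3, against 10.51, 10.32 and 10.47 in Control 1, 2 and 3. It repeated the arrangement of Slc25a1 and Elovl3, with DeltaHepKlf6 2 inside the Control range and DeltaHepKlf6 1 and 3 below it. Its mean was 10.03 ± 0.39 in DeltaHepKlf6 and 10.43 ± 0.10 in Control (SD, n = 3 each). The log2 difference of -0.40 ± 0.22 (SE) had the smallest unadjusted p of the 31 in limma, with an adjusted p = 0.998. Dgat1, the unrelated enzyme of the same reaction, differed by -0.19 ± 0.31 (SE), and by 0.06 without Control 1. Mogat1, a monoacylglycerol acyltransferase known to be induced in fatty liver, had the largest positive difference, 0.46 ± 0.28 (SE), at a level above that of only 24.2% of genes. It read 5.33, 4.58 and 4.55 in DeltaHepKlf6 1, 2 and 3, against 4.17, 4.75 and 4.17 in Control 1, 2 and 3. Control 2 lay above DeltaHepKlf6 2 and 3. The difference was 0.20 without DeltaHepKlf6 1 and 0.65 without Control 2. Pnpla3, a lipid droplet protein that remodels triglyceride and a SREBP-1c target, was the most even gene, with 5.81, 5.85 and 5.88 in DeltaHepKlf6 1, 2 and 3 and 5.81, 5.92 and 5.95 in Control 1, 2 and 3. All 6 Pnpla3 values lay within 0.14.

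The 4 regulators were all lower in sign, and none was called. Srebf1 read 6.26, 6.40 and 6.07 in DeltaHepKlf6 1, 2 and 3, against 6.36, 6.45 and 6.34 in Control 1, 2 and 3. DeltaHepKlf6 1 and 3 were below the Control range, DeltaHepKlf6 2 was inside it, and the log2 difference was -0.14 ± 0.14 (SE) with a 95% confidence interval of -0.48 to 0.20. The probe set is annotated to the gene and does not tell SREBP-1a from SREBP-1c here, and the processing of the protein is not visible in RNA. Mlxipl read 7.80, 7.31 and 7.76 in DeltaHepKlf6 1, 2 and 3, against 7.83, 7.73 and 7.77 in Control 1, 2 and 3. It was even in 5 arrays and lower in DeltaHepKlf6 2, and its difference of -0.15 ± 0.17 (SE) was 0.003 without that array. Thrsp, the lipogenic protein Spot 14, varied most between mice, with 9.02, 8.24 and 7.77 in DeltaHepKlf6 1, 2 and 3, against 7.98, 9.54 and 8.52 in Control 1, 2 and 3. Its values spanned 1.77 log2 units with interleaved groups, and the difference was -0.34 ± 0.48 (SE). Mid1ip1, a relative of Thrsp that helps acetyl-CoA carboxylase to polymerize, read 5.51, 6.23 and 5.12 in DeltaHepKlf6 1, 2 and 3, against 5.62, 5.75 and 5.95 in Control 1, 2 and 3, with a difference of -0.15 ± 0.29 (SE).

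The 31 genes were also compared array by array. Of the 28 genes with a single lowest array, 16 were lowest in DeltaHepKlf6 3, a larger share than the 39.7% of all such genes. Of the 30 with a single highest array, 17 were highest in Control 1, again a larger share than the 34.3% of all such genes. The median deviation of the 31 genes from their own 6-array means was -0.003, 0.10 and -0.28 in DeltaHepKlf6 1, 2 and 3, against 0.23, 0.05 and 0.03 in Control 1, 2 and 3. Over all genes it was -0.04, 0.09 and -0.12 in DeltaHepKlf6 1, 2 and 3, and 0.10, 0.005 and -0.03 in Control 1, 2 and 3. Most of the 31 are bright, whereas all genes include dim ones. The mean level of the brightest genes, as defined above, was also lowest in DeltaHepKlf6 3 and highest in Control 1, at 8.63 and 9.07. It was 8.82 to 8.99 in the other arrays. The mean of the 31 was 8.10 in DeltaHepKlf6 3, 8.59 in Control 1 and 8.33 to 8.49 elsewhere. Lowest and highest arrays were not counted for bright genes alone, so the shares above cannot show an excess particular to the 31. The arrays where the 31 genes stood lowest and highest were also those of narrowest and widest signal spread. With that spread, the interquartile range of each array, as a covariate, 20 of the 31 were lower and the median difference was -0.08, beside -0.01 over all genes.

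**Figure D3:**
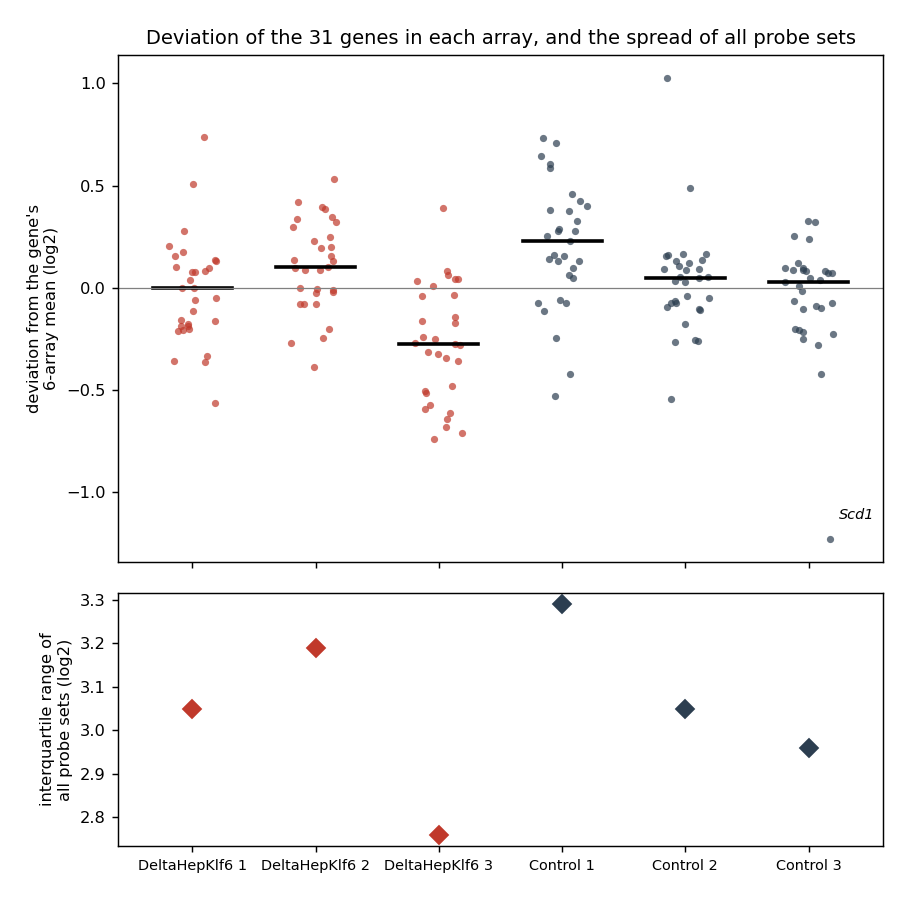
Upper panel, deviation of each of the 31 genes from its own 6-array mean (log2, vertical axis) in each array, with the median as a black bar; lower panel, interquartile range of all 23332 probe sets in the same array (log2; the axis does not start at 0). The genes lie lowest in DeltaHepKlf6 3 (median -0.28, interquartile range 2.76) and highest in Control 1 (0.23 and 3.29), and the lone low point in Control 3 is Scd1.

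No gene was called with any single array left out. The count of lower genes ran between 18, without DeltaHepKlf6 3, and 25, without Control 3. The median difference ran between -0.05, without DeltaHepKlf6 3, and -0.22, without DeltaHepKlf6 2. The median over all genes moved the same way, from -0.003 without DeltaHepKlf6 3 to -0.10 without DeltaHepKlf6 2. With all 6 arrays it was -0.05. Without DeltaHepKlf6 2, 4 of the 31 genes had an unadjusted p under 0.05 in limma, Slc25a1, Elovl3, Scd2 and Dgat2, against 7.7% of all probe sets. Their log2 differences were then -0.85, -0.67, -0.39 and -0.62, and the smallest adjusted p among them was 0.640. The share over genes alone is not given for this setting. Over all 6 arrays an unadjusted p under 0.05 was seen in 1.68% of genes and 3.21% of probe sets.

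Since Srebf1 encodes the factor known to drive many of these enzymes, its level was set against that of each of the other 30 genes across the 6 arrays. Pearson's r was positive in 23 of 30 relations, with a median of 0.496. The highest were Elovl3 with r = 0.905 (two-sided exact permutation p = 0.0333, Spearman's rho = 0.464, exact p = 0.372), Acly with r = 0.873 (exact permutation p = 0.0222, rho = 0.886, exact p = 0.0333) and Dgat2 with r = 0.834 (exact permutation p = 0.0292, rho = 0.6, exact p = 0.242). After Benjamini-Hochberg adjustment over the 30 relations 0 passed 0.05 by either measure, with a smallest adjusted permutation p of 0.278 for Pearson and 0.500 for Spearman. Without DeltaHepKlf6 3 and Control 2, the arrays farthest from the median of Srebf1, the median r was 0.233 and r was positive in 20 relations. Elovl3, Acly and Dgat2 then had r = 0.831, 0.774 and 0.906, over 4 arrays. Scd2 had r = 0.785 (exact permutation p = 0.0458, rho = 0.886, exact p = 0.0333), and 0.979 over the 4 arrays. Fasn had r = 0.769 (exact permutation p = 0.0653, rho = 0.6, exact p = 0.242) and Slc25a1 r = 0.775 (exact permutation p = 0.0556, rho = 0.771, exact p = 0.103), with 0.926 and 0.905 over the 4 arrays. Pearson's r was negative in 7 relations, those of Elovl2, Fads1, Lpin2, Mogat1, Mlxipl, Scd1 and Acsl4. Mlxipl had r = -0.318, Scd1 -0.175 and Acsl4 -0.433 (exact permutation p = 0.425, 0.690 and 0.414, rho = -0.429, 0.0286 and -0.486). The rho of Scd1 was thus not negative. The 6 arrays hold both groups, so r over them also takes in the difference between the groups. On deviations from the group means, r was 0.855 for Elovl3, 0.945 for Acly, 0.743 for Dgat2, 0.707 for Fasn and 0.666 for Slc25a1. It was -0.76 for Mlxipl, 0.0204 for Scd1 and -0.272 for Acsl4. All these values share the arrays and their signal spread, whose part in the relations was not tested.

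**Figure D4:**
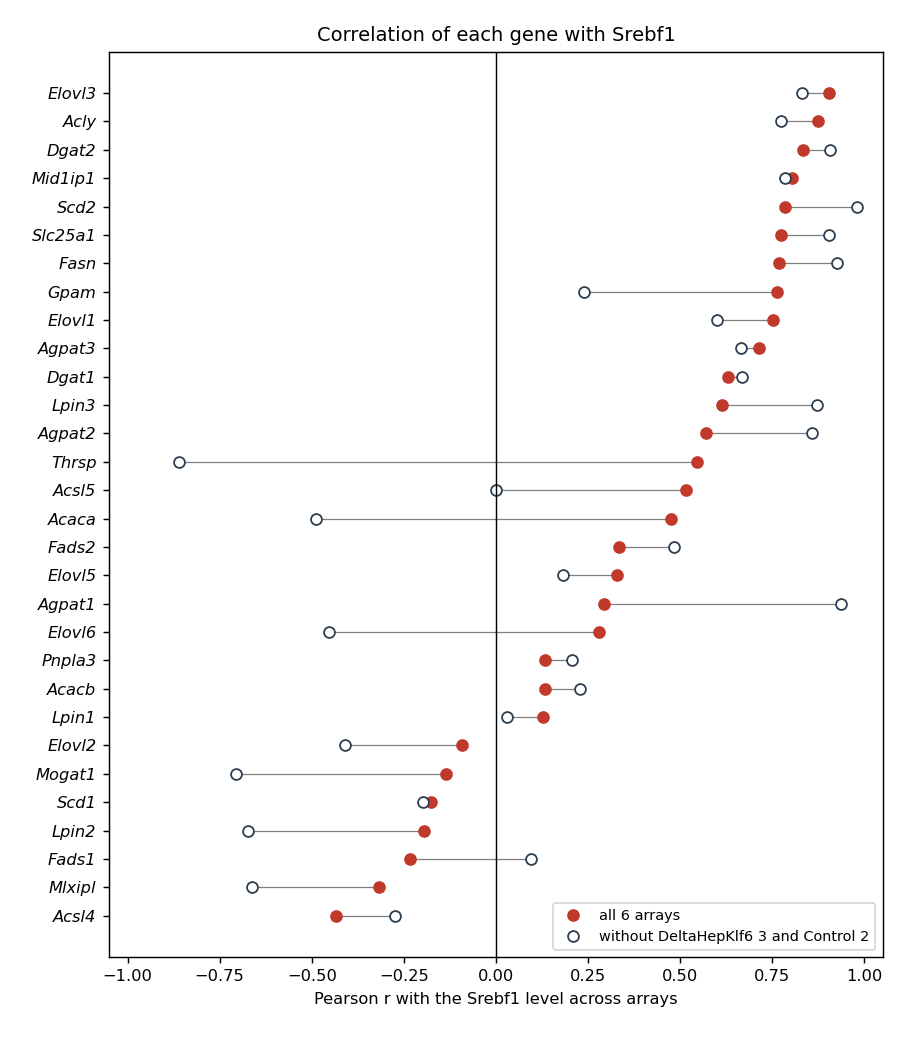
Pearson's r between the log2 signal of Srebf1 and of each of the other 30 genes, over all 6 arrays (filled) and without DeltaHepKlf6 3 and Control 2 (open, 4 arrays). Elovl3, Acly, Dgat2, Mid1ip1, Scd2 and Slc25a1 stay above 0.77 in both, whereas Thrsp, Acaca and Elovl6 turn negative over the 4 arrays.

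Genes around the pathway were read from fixed lists, and limma called 0 members of any of them at an adjusted p under 0.05. Of 8 measured genes for NADPH supply, the reducing power for chain synthesis, 6 were lower, with a median log2 difference of -0.23. Pgd, of the pentose phosphate pathway, read 6.98, 7.40 and 6.63 in DeltaHepKlf6 1, 2 and 3, against 8.08, 7.46 and 7.54 in Control 1, 2 and 3. Its groups did not overlap, and the difference was -0.69 ± 0.26 (SE; limma unadjusted p = 0.0381, adjusted p = 0.998). Of a list of 17 genes of glycolysis and adjoining steps 10 were measured, and all 10 were lower, with a median of -0.31. Gckr, the regulator of glucokinase, had the smallest unadjusted p of these, at -0.48 ± 0.14 (SE), and Pdhb, a subunit of pyruvate dehydrogenase, the largest difference, at -0.52 ± 0.31 (SE). Of 20 further fatty acid and glycerolipid genes 15 were lower, with a median of -0.05. Gpd1, which makes the glycerol backbone, was at -0.63 ± 0.31 (SE), with 8.55, 9.15 and 8.09 in DeltaHepKlf6 1, 2 and 3 and 9.54, 8.86 and 9.28 in Control 1, 2 and 3. The groups of Gpd1 overlapped through DeltaHepKlf6 2 again.

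Among 20 measured regulators of SREBP and LXR 15 were lower, with a median of -0.16. Insig2, which holds SREBP in the endoplasmic reticulum, had the smallest unadjusted p of these, at -0.55 ± 0.25 (SE). The cholesterol synthesis genes, driven by the sister factor SREBP-2, were lower in 9 of 15 with a median of -0.09. Genes of the fasting response were lower in 5 of 11 with a median of 0.003, with Ppargc1a, a coactivator of gluconeogenesis and oxidation, higher by 0.74 ± 0.24 (SE; limma unadjusted p = 0.0195, adjusted p = 0.998). Clock genes, which set the daily rhythm of lipogenesis, were lower in 8 of 13 with a median of -0.10.

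Cell type markers were read in the same arrays, because other cells also make lipid. Adipocyte markers were lower in 8 of 11 measured genes with a median of -0.04, and their mean level was 5.52, 5.41 and 5.19 in DeltaHepKlf6 1, 2 and 3 and 5.58, 5.37 and 5.38 in Control 1, 2 and 3. Adipoq, adiponectin, read 2.81 to 2.96 in DeltaHepKlf6 and 3.13 to 3.45 in Control, a dim probe set whose groups did not overlap. Lep, leptin, also dim, differed the other way by 0.56 ± 0.29 (SE), with overlapping groups, and Cidea and Aqp7 were higher by 0.06 and 0.01. Macrophage and Kupffer cell markers were lower in 14 of 14 measured genes with a median of -0.45, and their mean level was 7.36, 7.54 and 6.82 in DeltaHepKlf6 1, 2 and 3 and 7.91, 7.66 and 7.45 in Control 1, 2 and 3. Endothelial markers were lower in 10 of 13 and stellate cell markers in 9 of 13, with medians of -0.06 and -0.08. The part of other cells in the values of the 31 genes was not tested.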

How the data were processed

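Liver RNA of 6 mice was measured on 1 Affymetrix mouse exon array each, 3 DeltaHepKlf6 and 3 Control, grouped by the sample titles. The authors deposited log2 values for 23332 probe sets, rounded to 2 decimals. Affymetrix Expression Console, RMA and limma are named, per the submitters' processing notes, without versions, roles or order. The log2 scale was read from the range, 0.65 to 14.35. The genome build and annotation behind the probe sets are not given in the sources used here. RMA compresses differences of dim genes. No detection p-values were used, so genes at background cannot be told from weakly expressed ones, and 3 arrays a group set the precision.

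Gene names came from the platform annotation, in which 14996 probe sets name 1 gene, 1019 several and 7317 none here. The gene identifiers of 14941 matched RefSeq, which changed 0 symbols. Groups were compared by lmFit and eBayes (limma 3.58.1, R 4.3.3) on all probe sets, without covariates, with Benjamini-Hochberg adjustment over the whole table. The fit was also run on simulated data with known changes and independent noise for each value. The simulation held no differences of spread between arrays, so it does not show how the fit behaves under them. Correlations and plots used Python 3.11.15 with scipy 1.17.1, pandas 2.3.3 and matplotlib 3.10.9. The labels name separate mice.

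All measured members were named. Arrays were given one by one for the brightest member of each step, the 8 of smallest p, and Srebf1, Mlxipl and Fasn, and, chosen after their values were seen, for Acly, Scd1 and Mid1ip1. From other lists, up to 3 genes of smallest p could be named, and Cidea and Aqp7 were named after their values were seen. The members and lists were chosen with earlier results of these data known. Same-numbered mice were not treated as pairs in the main fit. The correlations of their deviations from the group means over all probe sets were -0.133, -0.167 and 0.21. Mice of unlike number gave -0.276 to 0.341. With 3 mice a group these values cannot decide whether mice were paired.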

Additional observations from a re-analysis of the deposited data

How the results depend on the processing

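No probe set and no member was called by limma under any alternative, namely quantile normalization, equal array medians, array weights, an intensity trend with robust hyperparameters, filters on the dimmest 25% and 50% of probe sets, the mean of a gene's probe sets, each array left out, the replicate block, and the array interquartile range as a covariate, which was added after seeing the data. With the replicate number as a block, 22 of 31 members were lower and the median difference was -0.14, as without it, and 884 probe sets had an unadjusted p under 0.05, against 750. That count was 1797 without DeltaHepKlf6 2 and 674 to 799 without any other array. The mean of a gene's probe sets equals the single set for these members, and the 50% filter left out Scd2 and Mogat1. Signs turned with quantile normalization in Acly (0.0069) and Agpat2 (0.0083), with array weights in Fads2 (0.0097), and with the covariate in Agpat2 (0.086) and Dgat1 (0.026).

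With 1 array left out the sign held in 164 of 186 values and turned in 21, and Agpat1 was at 0.00 without DeltaHepKlf6 1. The ranges that cross 0 were -0.26 to 0.38 for Acacb, -0.27 to 0.068 for Acly, -0.31 to 0.10 for Agpat2, -0.43 to 0.06 for Dgat1, -0.0017 to 0.093 for Elovl2, -0.10 to 0.19 for Elovl5, -0.27 to 0.027 for Fads2, -0.087 to 0.21 for Lpin1, -0.053 to 0.12 for Lpin2, -0.46 to 0.10 for Mid1ip1, -0.24 to 0.0033 for Mlxipl, -0.13 to 0.73 for Scd1 and -0.69 to 0.093 for Thrsp.

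The 95% intervals given are unadjusted, and 3 mice a group keep them wide.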
